A study of Homo sapiens with 9 samples.

Results

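The genes described here are 32 genes of glycolysis and of the response to low oxygen, chosen by symbol from a list that was drawn up with earlier results of these data known. All 32 were found among the 57820 named genes of the expression tables, and 30 of them passed the filter on low counts in each comparison. Of the 32, 22 move or break down glucose or set the fate of pyruvate, and 10 are oxygen sensors or other targets of the hypoxia-inducible factor (HIF).

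RNA was sequenced from MOLM13, an established acute myeloid leukemia (AML) line with a rearranged KMT2A (MLL) gene, to ask how the splicing factor RBM5 affects gene expression in leukemia cells. There were 3 groups of 3 biological replicates each. RBM5 OE cells carried an RBM5 cDNA that a lentivirus expressed from the EFS promoter with a Venus reporter. RBM5 KO cells received the single guide RBM5-sg1, CTRL cells received a non-targeting guide (sgNT), and both guides were used in cells that stably express Cas9. The labels give no treatment for any group, but the methods describe blasticidin selection of Cas9 lines and puromycin selection after the guides, and do not say whether RBM5 OE cells were selected in the same way, so selection and RBM5 cannot be told apart there. Nothing in the sources used here describes an empty Venus vector in the CTRL cells or says that the KO cells are 1 clone, so in RBM5 OE the vector and the added RBM5 cannot be told apart, and the KO libraries may hold edited and unedited cells.

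Glycolysis turns glucose into pyruvate in the cytosol, with hexokinase, phosphofructokinase and pyruvate kinase at its controlled steps, and lactate dehydrogenase regenerates the cofactor that keeps it running. When oxygen is low, prolyl hydroxylases of the EGLN family stop marking the HIF alpha subunits for destruction, and HIF binds short DNA elements with the core ACGTG or GCGTG beside many of the genes described here. Leukemia cells commonly use glycolysis even where oxygen is present.

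The libraries held 25522952 to 27871988 expected counts each. RBM5 itself was measured at 379.8, 414 and 416 CPM (the count of a gene scaled to the library total) in RBM5 OE, at 70.5, 73.9 and 79.4 CPM in RBM5 KO and at 122, 117 and 113 CPM in CTRL. The groups did not overlap, and the log2 fold change was 1.78 ± 0.07 (SE) in RBM5 OE and -0.65 ± 0.08 in RBM5 KO, with adjusted p = 4.11e-08 and 0.00692 in edgeR's quasi-likelihood test. The call in RBM5 KO was lost without CTRL replicate 1 (adjusted p = 0.0606). All 8 myeloid markers passed the filter, whereas 0 of 5 erythroid markers did, and HBB had no counts in any library. Of the myeloid markers, 3 were called higher and 1 lower in RBM5 OE and 1 was called lower in RBM5 KO, and their part in the results was not tested. CTRL replicate 3 and RBM5 KO replicate 1 stood apart from their groups in a shared direction, and 21.2% of all genes were lowest in both and 19.6% highest in both. Members whose calls changed without these libraries are given with and without them.

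In RBM5 OE the glycolytic genes were lower than in CTRL along most of the pathway, while several HIF targets with other functions were higher. By edgeR's quasi-likelihood test with a threshold of 0.05 on the adjusted p, 16 of the 30 genes were lower in RBM5 OE and 5 were higher, 21 in all. Among all 14370 genes of this comparison, 40.1% were called, 20.2% lower and 19.8% higher. The 16 falls all lay among the 22 genes of glucose transport and glycolysis, whose median log2 fold change was -0.29, against 0.01 over all genes tested. Of the 8 tested sensors and other HIF targets, 0 fell and 4 rose, with a median of 0.22. In 16 genes the RBM5 OE libraries all lay below the CTRL libraries and in 6 they all lay above, where 25.5% and 26.1% of all genes did so, 51.7% together. Because RNA was taken from whole cultures, fewer cells of a type and less RNA per cell cannot be told apart.

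**Figure D1:**
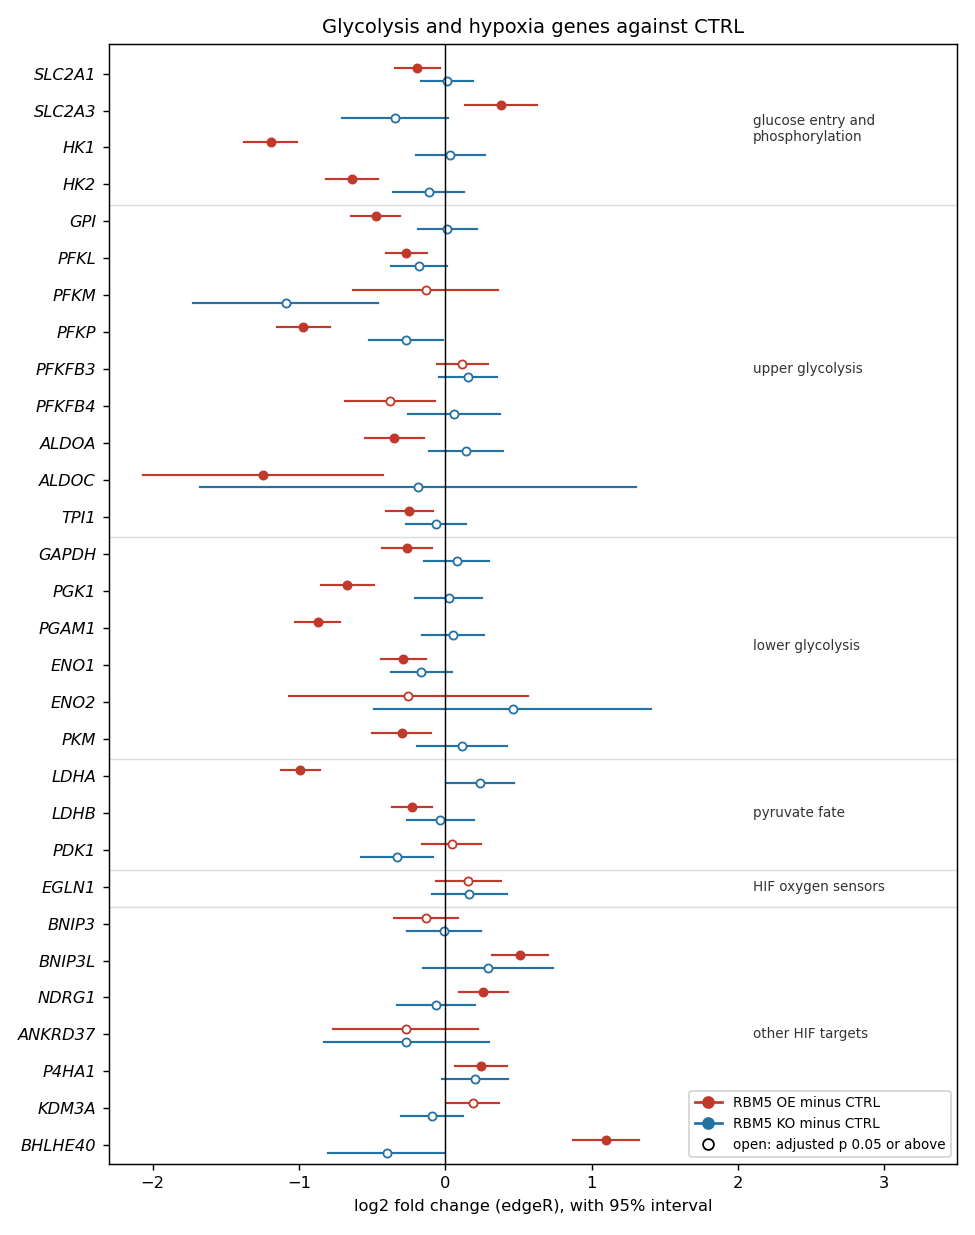
Log2 fold change of the 30 tested genes against CTRL (x axis, edgeR, bars are 95% intervals), grouped by role, with RBM5 OE in red above RBM5 KO in blue and filled points for an adjusted p under 0.05. In RBM5 OE 16 genes of glucose transport and glycolysis fell and BHLHE40 rose most, whereas in RBM5 KO no point is filled.

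Glucose enters the cell through the transporters SLC2A1 (GLUT1) and SLC2A3 (GLUT3) and is trapped by the hexokinases HK1 and HK2. HK1 (chr10:71029740-71161640, plus strand, GRCh37) was at 19.7, 18.1 and 19.2 CPM in RBM5 OE and at 43.7, 46.5 and 40.2 CPM in CTRL. Every OE library held less than any CTRL library, and the log2 fold change was -1.19 ± 0.08 (a fold of 0.438, adjusted p = 2.77e-06, edgeR). HK2 (chr2:75061254-75120486, plus strand) was at 60.6, 63.7 and 59.0 CPM in RBM5 OE against 100.1, 85.1 and 101 CPM in CTRL. It too was lower in each OE library than in any CTRL library, by a log2 fold change of -0.64 ± 0.08 (adjusted p = 0.00012, edgeR). In TPM, which accounts for transcript length, HK1 averaged 6.74 ± 0.23 and HK2 13.4 ± 1.3 in RBM5 OE, against 14.5 ± 0.6 and 19.9 ± 2.7 in CTRL (SD, n = 3).

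The transporters moved in opposite directions. SLC2A3 (chr12:8071826-8171603, minus strand) was at 104, 102 and 98.9 CPM in RBM5 OE against 89.5, 83.4 and 61.8 CPM in CTRL, a log2 fold change of 0.38 ± 0.11 (adjusted p = 0.018, edgeR). The groups did not overlap, although CTRL replicate 3 was far below the other CTRL libraries, and the call was lost without OE replicate 1 (adjusted p = 0.0699) or OE replicate 2 (0.0562). Reads of SLC2A3 can be shared with its near-identical neighbour SLC2A14, which was at 17.6, 19.0 and 19.0 CPM in RBM5 OE and at 8.91, 6.87 and 10.8 CPM in CTRL, so the split between these genes is uncertain. SLC2A1 was at 66.2, 62.0 and 68.6 CPM in RBM5 OE and at 75.2, 77.7 and 72.1 CPM in CTRL. Its log2 fold change of -0.19 ± 0.07 was just past the threshold (adjusted p = 0.0481, edgeR) and was not called without CTRL replicate 1 or 2 or without any 1 of the OE libraries (adjusted p between 0.0588 and 0.227).

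In upper glycolysis, from glucose 6-phosphate to the triose phosphates, 6 of 9 genes fell and none rose. Of all genes, 20.2% were called lower and 19.8% higher. GPI, the isomerase that makes fructose 6-phosphate, was at 386, 417 and 427 CPM in RBM5 OE and at 544, 634 and 537 CPM in CTRL. PFKP, the platelet-type phosphofructokinase, was at 57.1, 62.3 and 67.6 CPM in RBM5 OE and at 112, 124 and 129.6 CPM in CTRL. Neither gene's groups overlapped, and the log2 fold changes were -0.48 ± 0.08 for GPI (adjusted p = 0.000528) and -0.97 ± 0.08 for PFKP (adjusted p = 9.31e-06, edgeR). ALDOA, the main aldolase in these cells, was at 1241, 1293 and 1316 CPM in RBM5 OE and at 1619.6, 1895 and 1393 CPM in CTRL. It was lower in every OE library, by a log2 fold change of -0.35 ± 0.09 (adjusted p = 0.0108, edgeR).

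Smaller falls were called for the liver-type phosphofructokinase PFKL (-0.27 ± 0.06, adjusted p = 0.00606, edgeR) and the triose phosphate isomerase TPI1 (-0.24 ± 0.07, adjusted p = 0.0192). TPI1 was not called without OE replicate 1 (adjusted p = 0.0772) or OE replicate 2 (0.0684). The bifunctional enzymes that make and break down an activator of phosphofructokinase gave a log2 fold change of -0.38 ± 0.14 for PFKFB4 (adjusted p = 0.0505) and of 0.12 ± 0.08 for PFKFB3 (adjusted p = 0.27). PFKFB4 was called lower without CTRL replicate 3 (-0.41, adjusted p = 0.0318) or OE replicate 2 (0.0472) in edgeR. Limma-voom (0.0463) and edgeR with RLE scaling (0.0463) also called it, but the largest adjusted p among the alternatives was 0.532. PFKM, the muscle-type phosphofructokinase, was between 1.80 and 2.22 CPM in both groups and did not pass the test (-0.13, 95% interval -0.63 to 0.36).

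ALDOC, the brain-type aldolase (chr17:26900133-26903966, minus strand), had the largest fitted fall, and it was the only called member whose groups overlapped. It was at 23.6, 23.3 and 24.2 CPM in RBM5 OE, while CTRL held 62.4, 88.0 and 19.0 CPM. CTRL replicate 3 lay below every OE library, so the groups overlapped. The log2 fold change was -1.25 ± 0.37 (adjusted p = 0.0204, edgeR), and the call was lost in DESeq2 (adjusted p = 0.0812), in limma-voom (0.0936) and without CTRL replicate 1 (0.071), CTRL replicate 2 (0.113) or any 1 of the OE libraries (0.0538 to 0.068). Without CTRL replicate 3, ALDOC was called lower, with a log2 fold change of -1.67 (adjusted p = 4.14e-10, edgeR). The RBM5 KO libraries split in the same manner as CTRL, with 9.91, 72.7 and 66.4 CPM.

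In lower glycolysis, from glyceraldehyde 3-phosphate to pyruvate, 5 of 6 genes fell, where 20.2% of all genes did. PGAM1 (chr10:99185948-99193201, plus strand), the phosphoglycerate mutase, was at 410.1, 419 and 420.2 CPM in RBM5 OE and at 706, 837 and 745 CPM in CTRL. PGK1 (chrX:77166236-77384792, plus strand), which makes the first ATP of the pathway, was at 428, 434 and 448 CPM in RBM5 OE and at 685, 789 and 611 CPM in CTRL. The OE libraries of both genes were close together and below every CTRL library, with log2 fold changes of -0.87 ± 0.07 for PGAM1 (adjusted p = 6.55e-06) and -0.67 ± 0.08 for PGK1 (adjusted p = 0.00011, edgeR). PKM, the pyruvate kinase, was at 1132, 1176 and 1209 CPM in RBM5 OE and at 1403, 1679.8 and 1249 CPM in CTRL. Its log2 fold change was -0.30 ± 0.09 (adjusted p = 0.0219, edgeR), and it was not called without OE replicate 1 (adjusted p = 0.0806) or OE replicate 2 (0.0687).

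The most abundant members had small changes. GAPDH, the glyceraldehyde 3-phosphate dehydrogenase, averaged 3385 ± 112 TPM in RBM5 OE and 3962 ± 365 TPM in CTRL, and ENO1, the main enolase, averaged 1885 ± 86 TPM in RBM5 OE and 2240 ± 112 TPM in CTRL (SD, n = 3). On the log2 scale GAPDH fell by 0.26 ± 0.08 (adjusted p = 0.0212) and ENO1 by 0.29 ± 0.07 (adjusted p = 0.00677, edgeR). GAPDH was not called without OE replicate 1 (adjusted p = 0.0759) or OE replicate 2 (0.0765). ENO2, the neuronal enolase, was at or below 1.30 CPM in RBM5 OE and CTRL and did not pass the test (adjusted p = 0.626).

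At the branch after pyruvate, LDHA (chr11:18416107-18429972, plus strand), the lactate dehydrogenase subunit that favours lactate formation, was at 349, 352 and 349.6 CPM in RBM5 OE and at 675, 739 and 675 CPM in CTRL. The OE libraries differed from each other by a few CPM and held about 0.504 of the CTRL level, a log2 fold change of -0.99 ± 0.06 (adjusted p = 1.33e-06, edgeR). LDHB, the subunit typical of lactate-consuming tissues, was at 602, 569 and 550.4 CPM in RBM5 OE and at 677, 645 and 699 CPM in CTRL. LDHB also fell, by 0.23 ± 0.06 on the log2 scale (adjusted p = 0.0133), and was not called without OE replicate 2 (adjusted p = 0.0697) or OE replicate 3 (0.0652). PDK1, the kinase that blocks pyruvate dehydrogenase and is itself a HIF target, was at 24.4, 23.3 and 25.0 CPM in RBM5 OE and at 23.2, 21.3 and 26.0 CPM in CTRL. Its groups overlapped and the 95% interval of its log2 fold change ran from -0.16 to 0.25.

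**Figure D2:**
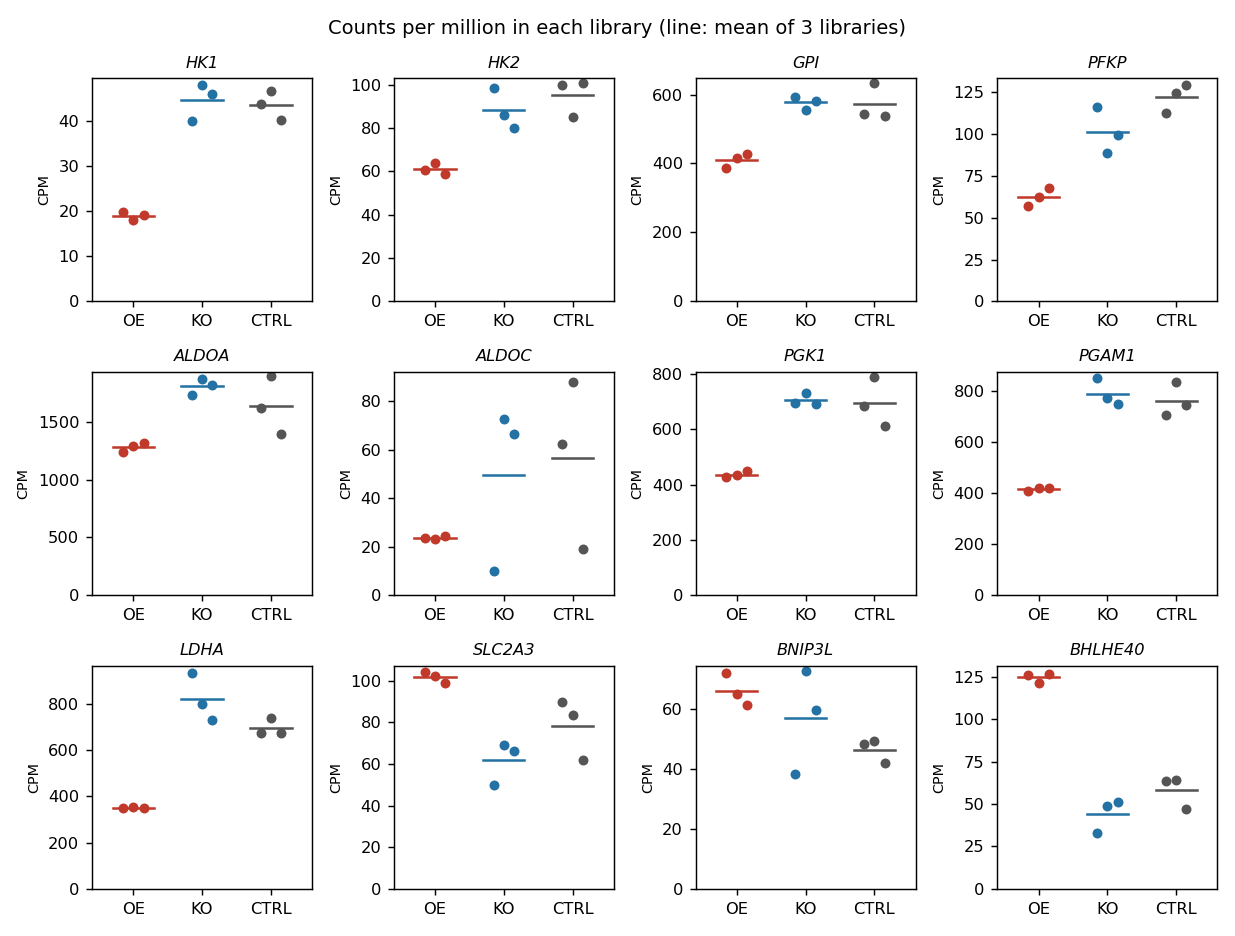
CPM (y axis, linear from 0) of 12 genes in each library, with RBM5 OE, RBM5 KO and CTRL from left to right and a line at the mean of 3 libraries. LDHA, PGK1 and PGAM1 of RBM5 OE lie in a narrow band below all other libraries, and ALDOC splits both RBM5 KO and CTRL.

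Summed over the 17 enzymes from hexokinase to lactate dehydrogenase, transcripts took 1.02%, 1.06% and 1.08% of all TPM in RBM5 OE, 1.33%, 1.38% and 1.35% in RBM5 KO and 1.32%, 1.42% and 1.22% in CTRL. Each OE library was below every other library. In an exact two-sided permutation test of 3 against 3 libraries the smallest p that can be reached is 0.1, so shares are given here as values.

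The outcome among the members that are HIF targets outside glycolysis was different. In a longer list of further HIF targets, described below, 5 of 18 tested genes rose and 5 fell. BHLHE40 (chr3:5021122-5027008, plus strand), a transcriptional repressor induced by hypoxia and by many other signals, was at 126, 121 and 127 CPM in RBM5 OE and at 63.5, 64.0 and 47.2 CPM in CTRL. Each OE library was above each CTRL library, by a log2 fold change of 1.10 ± 0.10 (a fold of 2.14, adjusted p = 1.63e-05, edgeR). BNIP3L, a mitophagy receptor, was at 71.8, 65.0 and 61.1 CPM in RBM5 OE and at 48.1, 49.1 and 41.9 CPM in CTRL. It rose by a log2 fold change of 0.51 ± 0.09 (adjusted p = 0.000781, edgeR) with no overlap, but limma on log2(TPM + 1) gave 0.22 (adjusted p = 0.133). NDRG1, a stress-response gene that HIF induces, was at 238, 255 and 265 CPM in RBM5 OE and at 213, 230.2 and 192 CPM in CTRL. P4HA1, a subunit of the prolyl hydroxylase of collagen, was at 35.6, 33.5 and 32.1 CPM in RBM5 OE and at 30.6, 27.9 and 27.1 CPM in CTRL.

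Neither NDRG1 nor P4HA1 had overlapping groups, and their log2 fold changes were 0.26 ± 0.08 and 0.24 ± 0.08 (adjusted p = 0.0192 and 0.0321, edgeR). NDRG1 was not called without CTRL replicate 1 (adjusted p = 0.0609), OE replicate 2 (0.0774) or OE replicate 3 (0.0936), and P4HA1 was not called without CTRL replicate 2 (0.0778), CTRL replicate 3 (0.0704), OE replicate 1 (0.141) or OE replicate 2 (0.0933). KDM3A, a histone H3 lysine 9 demethylase, was above CTRL in every OE library but did not pass the test (0.19 ± 0.08, adjusted p = 0.0914). BNIP3, the paralog of BNIP3L, gave -0.13 ± 0.10 (adjusted p = 0.333), and ANKRD37, a small ankyrin-repeat protein that HIF induces, gave -0.27 ± 0.23 (adjusted p = 0.371). EGLN1, the main prolyl hydroxylase that senses oxygen, gave 0.16 ± 0.10 (adjusted p = 0.247). Without CTRL replicate 3 EGLN1 was called higher (0.23, adjusted p = 0.0482, edgeR). The inducible hydroxylase EGLN3 had 3, 1 and 0 counts in the CTRL libraries and 0 in the other 6, and the peptide hormone ADM had at most 11 counts in any library, so neither was tested.

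Of the 21 calls in RBM5 OE, 8 (HK1, HK2, GPI, PFKP, PGK1, PGAM1, LDHA and BHLHE40) held under every alternative run. A further 4 held without each library in turn. Of these, PFKL and BNIP3L were not called by limma on TPM under any setting run, and ALDOA and ENO1 were not called by limma on log2(TPM + 1) only where the filter on low values was dropped (adjusted p = 0.134 and 0.0603).

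Promoters are shown for 5 of the genes, picked after their values were seen: LDHA, PGK1 and PGAM1 among those that fell without overlap, ALDOC because its groups overlapped, and BHLHE40 because it rose most. Each sequence holds 250 bases before and 50 after the most upstream start that the RefSeq table (GRCh38.p14) lists, on the strand of the gene. The gene positions given above are of another annotation and build and can begin at another start, so a window may not cover the first base of a gene as given there. Capitals mark the HIF core elements ACGTG and GCGTG on either strand, where CACGTG counts as 1 match on each strand. The windows are chr11:18394313-18394612 (plus) for LDHA, chrX:78103998-78104297 (plus) for PGK1, chr10:97427568-97427867 (plus) for PGAM1, chr17:28576846-28577145 (minus) for ALDOC and chr3:4979187-4979486 (plus) for BHLHE40.
LDHA: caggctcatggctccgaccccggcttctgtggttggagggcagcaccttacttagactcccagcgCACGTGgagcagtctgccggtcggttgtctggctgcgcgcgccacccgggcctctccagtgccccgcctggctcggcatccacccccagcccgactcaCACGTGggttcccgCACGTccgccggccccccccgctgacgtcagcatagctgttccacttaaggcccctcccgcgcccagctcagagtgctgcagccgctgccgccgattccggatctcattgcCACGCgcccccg
PGK1: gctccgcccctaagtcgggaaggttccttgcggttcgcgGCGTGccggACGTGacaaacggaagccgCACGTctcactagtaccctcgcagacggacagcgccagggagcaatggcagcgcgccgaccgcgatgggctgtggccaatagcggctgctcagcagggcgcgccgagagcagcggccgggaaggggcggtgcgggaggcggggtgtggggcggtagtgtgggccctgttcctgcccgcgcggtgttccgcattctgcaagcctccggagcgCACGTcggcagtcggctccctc
PGAM1: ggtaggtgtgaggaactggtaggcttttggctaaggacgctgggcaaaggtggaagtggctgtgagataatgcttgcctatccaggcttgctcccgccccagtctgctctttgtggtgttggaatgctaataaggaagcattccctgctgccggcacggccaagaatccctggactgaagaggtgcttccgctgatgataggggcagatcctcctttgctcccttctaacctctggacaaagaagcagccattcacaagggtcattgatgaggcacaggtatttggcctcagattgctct
ALDOC: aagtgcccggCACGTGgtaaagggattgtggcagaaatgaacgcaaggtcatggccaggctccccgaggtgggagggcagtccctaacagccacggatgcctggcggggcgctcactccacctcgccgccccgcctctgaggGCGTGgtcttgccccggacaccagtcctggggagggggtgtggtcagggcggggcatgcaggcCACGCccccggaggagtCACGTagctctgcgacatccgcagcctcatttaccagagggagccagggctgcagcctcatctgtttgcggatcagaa
BHLHE40: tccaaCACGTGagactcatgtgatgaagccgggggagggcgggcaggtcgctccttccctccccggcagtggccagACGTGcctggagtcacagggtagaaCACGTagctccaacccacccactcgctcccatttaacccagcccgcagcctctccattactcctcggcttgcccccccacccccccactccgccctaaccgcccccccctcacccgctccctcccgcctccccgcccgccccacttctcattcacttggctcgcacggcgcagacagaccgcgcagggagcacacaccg

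There were 6 matches in the LDHA window, 4 in PGK1, 0 in PGAM1, 5 in ALDOC and 4 in BHLHE40. The PGAM1 window may lie inside the gene as placed above, so its 0 may not describe the start of that gene. In the LDHA window 5 of them begin at positions -185 to -73 relative to the start. Of 52 windows found for 29 of the 32 genes, 36 (69.2%) held at least 1 match and 11.5% held 4 or more. These shares count windows, and some genes, such as HK1 and PFKM, had several. No window was found for SLC2A3, BNIP3L or NDRG1, which were called higher in RBM5 OE. Among all 35116 RefSeq windows of this length, 48.4% held at least 1 match and 4.40% held 4 or more. Genes that fell (LDHA, PGK1) and a gene that rose (BHLHE40) thus carry the same core letters near their starts, and a match is a description of the letters and not a measured binding site.

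Several enzymes of the pathway are made from paralogous genes, and in RBM5 OE the share of TPM within such sets differed from that in CTRL by more than the spread between libraries. LDHA made up 26.0%, 29.3% and 29.7% of LDHA and LDHB together in RBM5 OE, against a mean of 41.2% ± 2.4 in CTRL (SD, n = 3). HK1 made up 33.6%, 32.1% and 34.9% of HK1 and HK2 in RBM5 OE, against 41.1%, 47.0% and 39.0% in CTRL. In both pairs no OE library reached a CTRL library. PFKP made up 21.5% ± 1.5 of the 3 phosphofructokinases in RBM5 OE and 31.7% ± 0.9 in CTRL, while PFKL made up 77.3% ± 1.1 and 67.6% ± 0.9 (SD, n = 3). SLC2A3 made up 55.8% ± 2.0 of the SLC2A1 and SLC2A3 transcripts in RBM5 OE and 46.6% ± 3.7 in CTRL. PFKFB4 made up 17.3% ± 2.8 of its pair in RBM5 OE, 20.0% ± 1.3 in RBM5 KO and 23.1% ± 1.5 in CTRL, and the KO libraries were also all below CTRL (exact permutation p = 0.1). Each of these 5 sets reached p = 0.1 in the exact two-sided permutation test, the smallest value 3 against 3 libraries allow, and 9 sets were compared, so no adjusted value can pass 0.05. The exact permutation test gave p = 0.2 for BNIP3L within BNIP3 and BNIP3L and p = 0.4 for ALDOC within ALDOA and ALDOC.

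**Figure D3:**
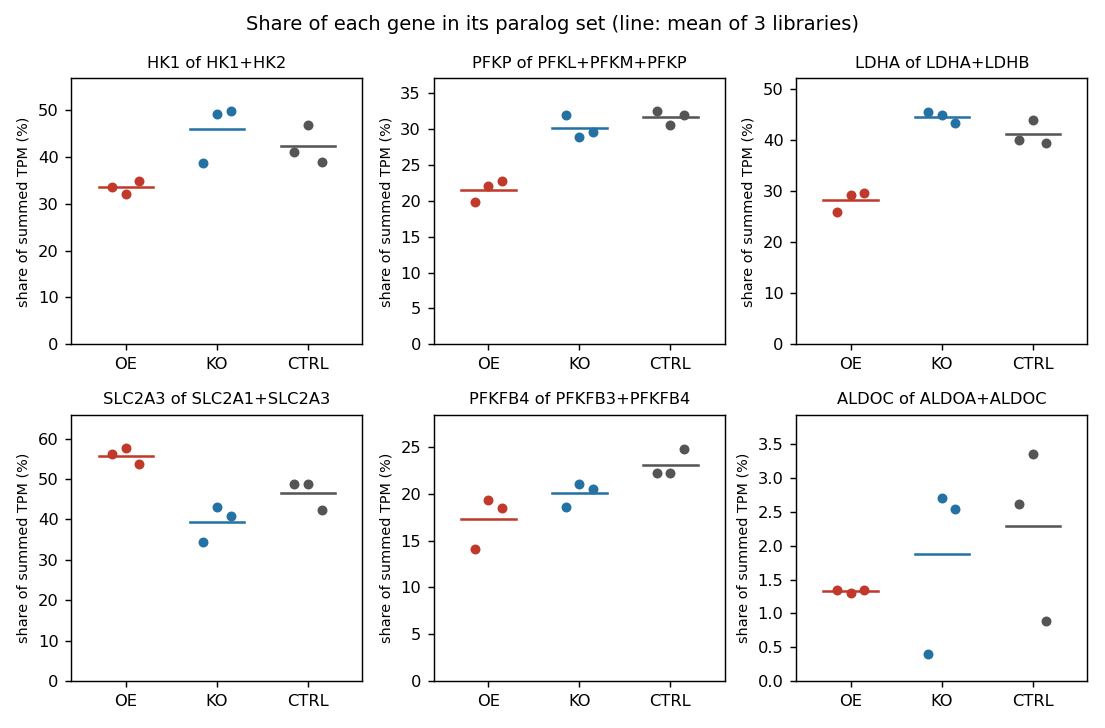
Share of summed TPM (y axis, percent from 0) that 1 gene takes in its paralog set, per library, with RBM5 OE, RBM5 KO and CTRL from left to right and a line at the mean of 3 libraries. The RBM5 OE libraries lie below CTRL for HK1, PFKP, LDHA and PFKFB4 and above CTRL for SLC2A3, and ALDOC overlaps.

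In RBM5 KO no member passed the test. Of the 30 genes tested, 0 were called by edgeR's quasi-likelihood test, 0 by DESeq2 and 0 by limma-voom, and 4 had an unadjusted p under 0.05. Over all 14218 genes tested, 2.51% were called, 0.837% higher and 1.67% lower, so few calls would be found in 30 genes at that rate. The median log2 fold change of the members was 0.00, against 0.01 over all genes. In 3 genes all KO libraries lay below CTRL and in 2 all lay above, where 11.7% and 11.2% of all genes did so, 22.9% together.

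PFKM had the largest difference, at 1.21, 0.958 and 0.773 CPM in RBM5 KO and 2.20, 2.22 and 1.85 CPM in CTRL. The groups did not overlap, but the gene is scarce, and the log2 fold change of -1.09 ± 0.28 did not pass the test (adjusted p = 0.0855, edgeR). With all 9 libraries in 1 fit it was called (adjusted p = 0.0251). PDK1 was at 19.5, 18.9 and 17.8 CPM in RBM5 KO and at 23.2, 21.3 and 26.0 CPM in CTRL, again without overlap (-0.33 ± 0.11, adjusted p = 0.173). In TPM its groups overlapped, at 7.55, 4.79 and 5.00 in RBM5 KO and at 6.60, 5.71 and 7.22 in CTRL. LDHA was at 933, 797 and 731 CPM in RBM5 KO and at 675, 739 and 675 CPM in CTRL, with overlap (0.24 ± 0.10, adjusted p = 0.287). Of the genes with the largest falls in RBM5 OE, PFKP was at 116, 88.6 and 99.5 CPM in RBM5 KO and at 112, 124 and 129.6 CPM in CTRL (-0.27 ± 0.11, unadjusted p = 0.0377 and adjusted p = 0.267, edgeR). The 95% intervals in RBM5 KO, not adjusted for the number of genes, were -1.67 to 1.31 for ALDOC, -0.52 to -0.02 for PFKP, 0.00458 to 0.467 for LDHA, -0.20 to 0.27 for HK1, -0.16 to 0.26 for PGAM1 and -0.21 to 0.25 for PGK1. BHLHE40 was at 32.8, 48.6 and 51.0 CPM in RBM5 KO and at 63.5, 64.0 and 47.2 CPM in CTRL, where CTRL replicate 3 overlapped the KO libraries (-0.40 ± 0.18, adjusted p = 0.299).

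Many members had their extreme values in the libraries that stood apart. Within their groups, 14 of the 30 genes were lowest in both CTRL replicate 3 and RBM5 KO replicate 1, and 4 were highest in both. Among all genes, 21.2% were lowest in both and 19.6% highest in both. In log2 CPM, ALDOC differed by -2.81 between RBM5 KO replicate 1 and the mean of the other KO libraries, and by -1.96 between CTRL replicate 3 and the mean of the other CTRL libraries. The same differences for KO replicate 1 and CTRL replicate 3 were -1.17 and -1.03 for ENO2, -0.78 and -0.21 for BNIP3L and -0.60 and -0.43 for BHLHE40. Without RBM5 KO replicate 1, BNIP3L was called higher (log2 fold change 0.51, adjusted p = 0.0226), and PFKM (-1.27, adjusted p = 0.0381) and PFKP (-0.38, adjusted p = 0.0389) were called lower in RBM5 KO. Without both libraries, BNIP3L (0.44) and EGLN1 (0.32) were called higher, and PFKM (-1.35), PFKP (-0.33), SLC2A3 (-0.36) and BHLHE40 (-0.36) lower, with adjusted p between 0.00459 and 0.0396 in edgeR. Calls were also more frequent over all genes without these libraries, with 998 higher and 961 lower of 14381 tested, against 119 higher and 238 lower of 14218 with all libraries. What sets these libraries apart was not tested.

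**Figure D4:**
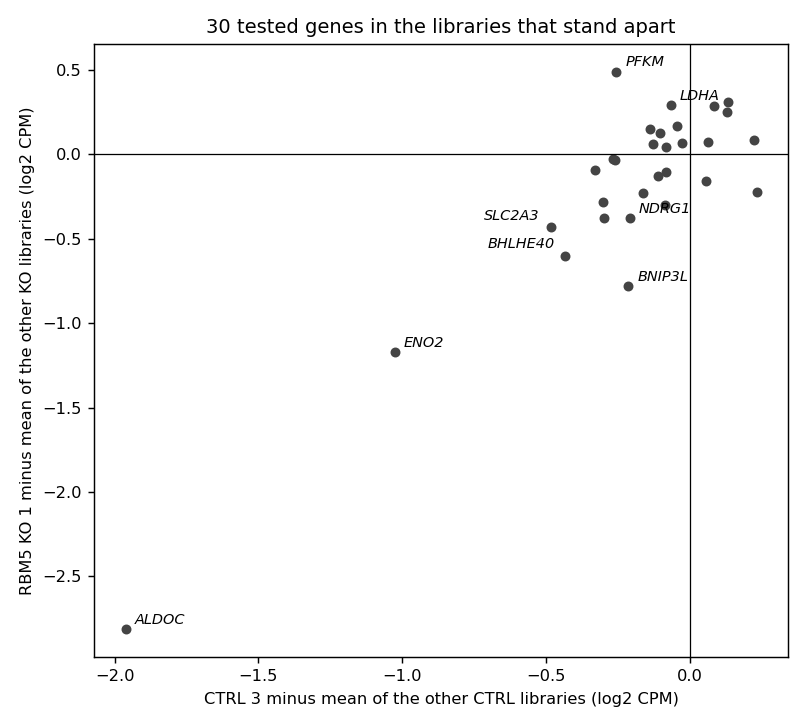
Each of the 30 tested genes by its log2 CPM in CTRL replicate 3 minus the mean of the other CTRL libraries (x axis) and in RBM5 KO replicate 1 minus the mean of the other KO libraries (y axis). ALDOC and ENO2 are far below 0 on both axes, and SLC2A3, BHLHE40 and BNIP3L lie in the same corner.

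Compared directly in a fit of all 9 libraries, which uses the same OE and KO libraries as above, RBM5 OE differed from RBM5 KO at 18 of the 30 genes. Of these, 12 were lower and 6 higher in RBM5 OE (edgeR). Of all 14754 genes tested, 40.1% were called, 20.6% lower and 19.5% higher. The groups did not overlap for 13 members lower and 6 higher in RBM5 OE, against 26% and 26.6% of all genes, 52.6% together. The lower ones were HK1 (-1.23 ± 0.09), LDHA (-1.23 ± 0.09), PGAM1 (-0.93 ± 0.08), PFKP (-0.70 ± 0.11), PGK1 (-0.69 ± 0.09), HK2 (-0.53 ± 0.10), GPI, ALDOA, PFKFB4, PKM, GAPDH and SLC2A1. The higher ones were BHLHE40 (1.498 ± 0.156), PFKM (0.95 ± 0.25), SLC2A3 (0.72 ± 0.14), PDK1 (0.37 ± 0.09), NDRG1 (0.32 ± 0.11) and KDM3A (0.28 ± 0.09). BHLHE40 thus held 126, 121 and 127 CPM in RBM5 OE against 32.8, 48.6 and 51.0 CPM in RBM5 KO, and SLC2A3 held 104, 102 and 98.9 CPM in RBM5 OE against 50.1, 68.9 and 66.1 CPM in RBM5 KO. Without RBM5 KO replicate 1, NDRG1, KDM3A and SLC2A1 were no longer called (adjusted p = 0.0704, 0.0634 and 0.0526), and ALDOC (-1.55, adjusted p = 0.0073) and ENO2 (-1.01, adjusted p = 0.0456) were called lower in RBM5 OE. Other single libraries ended the calls of 5 genes. NDRG1 was not called without OE replicate 2 (0.0875) or OE replicate 3 (0.0983), and KDM3A was not called without KO replicate 3 (0.071), OE replicate 1 (0.126) or OE replicate 2 (0.05001). PKM was not called without KO replicate 3 (0.0562) or OE replicate 1 (0.0575). PFKFB4 was not called without KO replicate 2 (0.0797), KO replicate 3 (0.0959), OE replicate 1 (0.12) or OE replicate 3 (0.0664), and limma on log2(TPM + 1) gave it -0.16 (adjusted p = 0.491). SLC2A1 was also not called without CTRL replicate 1, KO replicate 2 or any 1 of the OE libraries (0.052 to 0.159). PDK1 was not called by limma on TPM under any setting run (adjusted p = 0.165 to 0.298).

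Genes of the neighbouring pathways were read from lists. Among the subunits and regulators of HIF, 3 of 12 tested genes rose and 1 fell in RBM5 OE, a share no higher than the 40.1% called over all genes. HIF1A, the oxygen-regulated alpha subunit, was at 74.0, 72.5 and 63.0 CPM in RBM5 OE and at 47.1, 37.9 and 36.9 CPM in CTRL, a log2 fold change of 0.78 ± 0.10 (adjusted p = 0.000144, edgeR) with no overlap. SIAH2, a ubiquitin ligase that degrades EGLN proteins, was at 94.1, 84.9 and 92.6 CPM in RBM5 OE, at 42.7, 38.8 and 38.9 CPM in RBM5 KO and at 68.2, 63.5 and 53.0 CPM in CTRL. It was above CTRL in each OE library and below CTRL in each KO library, with log2 fold changes of 0.56 ± 0.09 (adjusted p = 0.000669) and -0.62 ± 0.11 (adjusted p = 0.0258, edgeR). SIAH1, its paralog, rose by 0.46 ± 0.12 and TCEB2, the elongin B subunit of the ligase that degrades HIF, fell by 0.30 ± 0.09 on the log2 scale in RBM5 OE. Single libraries ended these calls, for SIAH1 the omission of OE replicate 1 (adjusted p = 0.054) and for TCEB2 that of CTRL replicate 2 or any 1 OE library (0.0549 to 0.0918).

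Among further HIF targets, 5 of 18 tested genes rose and 5 fell in RBM5 OE (40.1% of all genes were called), with a median log2 fold change of 0.05. VEGFA, the angiogenic growth factor, was at 379, 399 and 401 CPM in RBM5 OE, at 66.4, 78.2 and 85.1 CPM in RBM5 KO and at 200.1, 182 and 111 CPM in CTRL. DDIT4 (REDD1), an inhibitor of mTOR signalling induced by hypoxia and other stress, was at 208, 208 and 209 CPM in RBM5 OE, at 17.1, 12.8 and 12.2 CPM in RBM5 KO and at 77.9, 77.4 and 32.8 CPM in CTRL. In both genes every OE library was above and every KO library below all CTRL libraries. The log2 fold changes in RBM5 OE were 1.26 ± 0.16 for VEGFA (adjusted p = 0.00013) and 1.74 ± 0.24 for DDIT4 (adjusted p = 0.00018, edgeR). In RBM5 KO they were -1.10 ± 0.20 for VEGFA (adjusted p = 0.0258) and -2.16 ± 0.30 for DDIT4 (adjusted p = 0.0094, edgeR). VLDLR, a lipoprotein receptor, gave 0.35 ± 0.10 in RBM5 OE and -1.01 ± 0.13 in RBM5 KO (adjusted p = 0.0163 and 0.00706), and FAM162A, a mitochondrial protein, gave -0.77 ± 0.09 in RBM5 OE (adjusted p = 5.09e-05). Comparisons with CTRL share the same CTRL libraries, and CTRL replicate 3 was the lowest of the CTRL libraries for SIAH2, VEGFA, DDIT4 and VLDLR.

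The calls of these genes in RBM5 KO were lost without single libraries, and calls over all genes also became fewer there. With all libraries 119 genes were higher and 238 lower, against 9 and 18 without CTRL replicate 1 and 21 and 43 without CTRL replicate 2. The counts were 27 and 77 without KO replicate 2, and 25 and 72 without KO replicate 3. Without CTRL replicate 1 the adjusted p was 0.15 for SIAH2, 0.137 for VEGFA, 0.0644 for DDIT4 and 0.0598 for VLDLR, and without CTRL replicate 2 it was 0.127, 0.137, 0.0636 and 0.0546 for the same genes. SIAH2 and VEGFA were also not called without KO replicate 2 (0.107 and 0.0921) or KO replicate 3 (0.116 and 0.0709). In RBM5 OE, VLDLR was not called without OE replicate 1 (0.0539) or OE replicate 2 (0.0649).

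**Figure D5:**
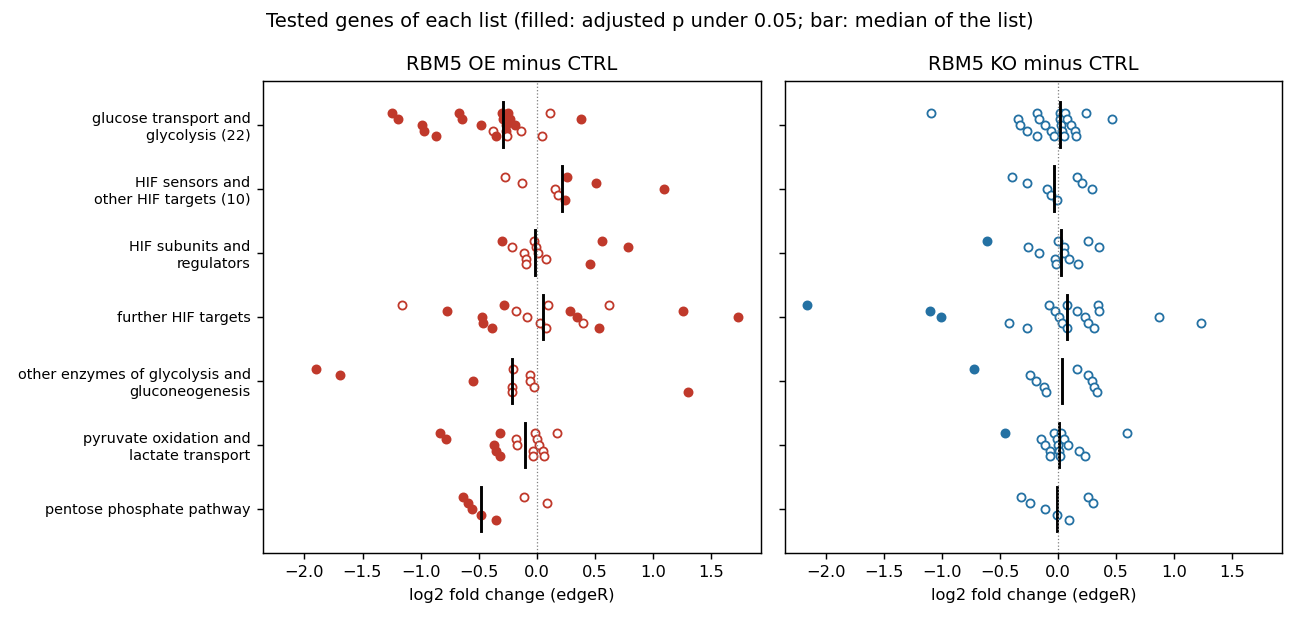
Log2 fold change (x axis, edgeR) of the tested genes of each list in RBM5 OE (left) and RBM5 KO (right) against CTRL, with filled points for an adjusted p under 0.05 and a bar at the median of the list. In RBM5 OE the medians of glucose transport and glycolysis (-0.29) and of the pentose phosphate pathway (-0.48) lie below 0, and in RBM5 KO the medians of these lists are 0.01 and -0.01.

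Beside the main enzymes, 1 of 10 tested further genes of glycolysis and gluconeogenesis rose in RBM5 OE and 3 fell, a share near the 40.1% called over all genes. HK3, the hexokinase of myeloid cells, was at 2.16, 1.87 and 1.67 CPM in RBM5 OE and at 7.22, 7.84 and 6.31 CPM in CTRL, a log2 fold change of -1.90 ± 0.18 (adjusted p = 1.9e-05, edgeR). ENO3, the muscle enolase, was at 7.13, 9.21 and 8.04 CPM in RBM5 OE and at 4.08, 3.00 and 2.80 CPM in CTRL, a log2 fold change of 1.31 ± 0.18 (adjusted p = 0.000228, edgeR). PGM1, which joins glycogen to glycolysis, fell by 0.55 ± 0.08 on the log2 scale (adjusted p = 0.000388). PGAM4 also fell (-1.69 ± 0.47, adjusted p = 0.0145), but it is nearly identical to PGAM1 and stood at 1.45 CPM or less, so the split of reads between them is uncertain. In RBM5 KO, FBP1, the bisphosphatase of gluconeogenesis, was at 13.9, 11.5 and 12.4 CPM against 17.9, 19.3 and 25.3 CPM in CTRL (-0.72 ± 0.15, adjusted p = 0.0457), a call lost without any 1 of the CTRL libraries, KO replicate 2 or KO replicate 3 (adjusted p between 0.102 and 0.158).

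The pentose phosphate pathway, which branches off at glucose 6-phosphate, was lower in RBM5 OE at 5 of 7 genes (20.2% of all genes fell), with a median log2 fold change of -0.48, and 0 of 7 were called in RBM5 KO by edgeR, where 2 had an unadjusted p under 0.05. RPIA (-0.63 ± 0.09), RPE (-0.56 ± 0.09) and TALDO1 (-0.48 ± 0.07), which interconvert sugar phosphates of the pathway, fell, with adjusted p between 0.000264 and 0.000499 in edgeR. The OE libraries of these 3 genes all lay below the CTRL libraries.

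In the list of pyruvate oxidation and lactate transport, 6 of 16 tested genes fell in RBM5 OE and 0 rose by edgeR, where 20.2% and 19.8% of all genes did. DLAT, the acetyltransferase core of pyruvate dehydrogenase, was at 48.4, 48.7 and 45.7 CPM in RBM5 OE and at 86.2, 79.1 and 89.2 CPM in CTRL, a log2 fold change of -0.83 ± 0.07 (adjusted p = 1.13e-05, edgeR). PDHA1, its catalytic subunit, fell by 0.36 ± 0.07 (adjusted p = 0.00155) and PDK3, a kinase that blocks the complex, by 0.78 ± 0.17 on the log2 scale (adjusted p = 0.0034). PDP2, a phosphatase that reactivates the complex, was lower in both RBM5 OE (-0.35 ± 0.11, adjusted p = 0.0303) and RBM5 KO (-0.46 ± 0.10, adjusted p = 0.0483). Its call in RBM5 OE was lost without CTRL replicate 1 (0.0511), CTRL replicate 2 (0.061) or OE replicate 1 (0.0939), and that in RBM5 KO without any 1 of the CTRL libraries, KO replicate 2 or KO replicate 3 (0.131 to 0.186).

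By level in CTRL, the members ran over several orders of magnitude in TPM. GAPDH was highest, at 3962 ± 365 TPM, followed by ENO1 (2240 ± 112) and ALDOA (2199 ± 307), which did not differ beyond their spread, and by PKM (953 ± 106) and LDHB (789 ± 62). LDHA (552 ± 14) and PGAM1 (541 ± 29.7) also overlapped in CTRL. The hexokinases were far lower, at 19.9 ± 2.7 TPM for HK2 and 14.5 ± 0.6 TPM for HK1, and PFKM, ENO2, ADM and EGLN3 were the 4 lowest.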

How the data were processed

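Bulk RNA-seq was analysed from 9 libraries in 3 groups of 3 (RBM5 OE, RBM5 KO and CTRL), grouped by their labels. Per the submitters' processing notes, reads were trimmed with Trim Galore, aligned with STAR 2.7.1a to hg19 (GRCh37.p13) and quantified with RSEM, with GATK 4.1.2.0 used to mark duplicates. The deposited tables give RSEM expected counts per gene, which are not normalized, and the authors' TPM, which accounts for transcript length and depth. Expected counts were rounded to whole numbers, and 92 spike-in entries, all at 0, were left out. Every column was mapped to a sample. Reads were counted without strand, so a gene and an antisense partner cannot be told apart.

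The quasi-likelihood test of edgeR 4.0.16 (R 4.3.3) was run after filterByExpr and TMM scaling. P-values were adjusted by Benjamini-Hochberg across every gene in the fit and called under 0.05. Each comparison with CTRL was fitted on its own 6 libraries, and RBM5 OE against RBM5 KO on all 9. SE is the absolute log2 fold change divided by the square root of F. CPM are rounded counts over the TMM-scaled library total. Only the edgeR fits of the comparisons with CTRL were also run on simulated data. The edgeR p-values set the difference between groups against the spread between replicates, which is estimated with help from the other genes. In RBM5 OE against RBM5 KO that spread also draws on the CTRL libraries.

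Alternatives were DESeq2 1.42.0, limma-voom (limma 3.58.1), other scaling, other filters, limma on log2(TPM + 1) and log2(TPM + 0.1), the number of libraries in the fit, a replicate block, reads of pseudogenes added, and each library left out. Values per library were given for up to 12 members called in RBM5 OE with no overlap of groups and the largest change, and for further members by role. Of each pathway list, up to 4 called genes with the smallest p were named, and PGAM4 and SLC2A14 were added as near-identical copies of members after their values were seen. Some genes of the lists are not reported here by name. The members and lists were chosen with earlier results of these data known. Gene positions are from GENCODE on GRCh37 and promoters from RefSeq on GRCh38.p14.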

Additional observations from a re-analysis of the deposited data

How the results depend on the processing

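The number of members called depended on the fit more than their direction did, and no called value changed sign. In RBM5 KO, 1 member was lower with all 9 libraries in the fit (378 higher and 513 lower over all genes, against 119 and 238 in the main fit). Of the members, 2 were higher and 4 lower without CTRL replicate 3 and RBM5 KO replicate 1 (998 higher and 961 lower of 14381 genes in all). Each omission of 1 library gave 0 to 1 members higher and 0 to 2 lower, and 9 to 565 genes higher and 18 to 549 lower in all. In RBM5 OE against CTRL, 2 members were higher with all 9 libraries in the fit (2357 over all genes, against 2847 in the main fit). Limma on TPM gave 2 members higher with either pseudocount (1983 and 1944 over all genes). With no filter it gave 1 member higher and 7 lower (1403 and 1231 over all genes, against 2847 and 2909 in the main fit). Leaving out 1 library gave 2 to 5 members higher and 11 to 17 lower, and 2048 to 3044 genes higher and 2136 to 3117 lower in all. In RBM5 OE against RBM5 KO, limma on TPM gave 3 members higher with either pseudocount (2433 and 2388 over all genes, against 2878 in the main fit). With no filter it gave 2 members higher and 7 lower (2186 and 1536 over all genes, against 2878 and 3042 in the main fit). Omitting 1 library here gave 4 to 6 members higher and 9 to 13 lower, and 2234 to 2957 genes higher and 2330 to 3178 lower in all. The cause was not tested. Correlations of the deviations of same-numbered libraries lay between -0.40 and 0.14. Deviations were taken from means of 3 libraries, and CTRL replicate 3 went with RBM5 KO replicate 1 (0.48). These values therefore cannot decide whether the numbers pair the samples. With the replicate block 5 members were higher and 15 lower in RBM5 OE (2689 and 2696 over all genes). They were 0 and 0 in RBM5 KO (45 and 109 over all genes), and 5 and 11 in RBM5 OE against RBM5 KO (2600 and 2703 over all genes). PFKM, ENO2, ADM and EGLN3 had the lowest levels, and ADM and EGLN3 had too few counts to be tested.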
